A study of Mus musculus with 4 samples.

Results

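The genes described here are 10 AP-1 and immediate early genes, Fos, Fosb, Jun, Junb, Jund, Egr1, Ier2, Atf3, Dusp1 and Zfp36. They were taken by name from a table of 18751 distinct gene names, and all 10 had a row. Immediate early genes are transcribed within minutes of a stimulus, by factors that are already in the cell and need no new protein. FOS and JUN family proteins pair through leucine zippers into AP-1, a dimer that binds DNA, and several products of these genes then switch the response off again. In neutrophils and other myeloid cells the genes respond to adhesion, chemoattractants, cytokines and handling.

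The RNA was labelled as coming from PMN-MDSCs (polymorphonuclear myeloid-derived suppressor cells), which resemble neutrophils, arise in tumour-bearing hosts and restrain T cells. There were 2 libraries from CD300ld KO mice, in which a receptor gene of the CD300 family is disrupted, and 2 from wild-type (WT) mice. Both groups were C57BL/6 mice of 8 weeks with B16-F10 melanoma cells, 1 transplantable mouse line, placed under the skin, and the cells were enriched on day 15 with magnetic beads for neutrophils. The labels name neither the organ, nor the part of the gene removed, nor whether animals were pooled. Nor do they state separate animals for the libraries of a genotype, so the p-values reflect only how far these libraries spread, and that spread may be technical.

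Library totals were 830931 and 835510 for KO, against 674599 and 920839 for WT. The targeted gene, Cd300ld, had 2 and 3 counts in KO against 0 and 11 in WT, too few to check the genotype labels. Neutrophil markers were present in all 4 libraries, but their summed level was 5231 to 5825 CPM (counts per 1000000 of the scaled library) in KO against 34700 to 38780 CPM in WT, with 0 of 15 tested markers called higher and 12 lower, among them S100a8, Ngp, Ltf, S100a9 and Camp. Erythroid markers summed to 196900 to 216700 CPM in KO against 157400 to 165700 CPM in WT, with 8 of 13 called higher, among them Car1, Tfrc, Hba-a1, Hbb-b1 and Slc4a1. Their share of all counts was 20.7% and 19.5% in KO and 15.2% and 16.2% in WT. The 15 neutrophil markers made up 0.557% and 0.519% in KO and 3.35% and 3.8% in WT. A sum over 15 markers does not give the share of RNA that came from neutrophils. Monocyte and macrophage markers summed to 658.7 to 855.9 CPM in KO against 1584 to 1716 CPM in WT, with 6 of 14 called lower, among them Ly6c2, F13a1, Vcam1, Ms4a6c and C1qb. B cell markers summed to 8379 to 9059 CPM in KO against 6678 to 7584 CPM in WT, with 0 of 10 called and Ighm and Cd74 the most abundant. The B cell sum was above the neutrophil sum in KO and below it in WT. T and NK cell markers summed to 406.8 to 467.2 CPM in KO against 342.6 to 412.1 CPM in WT, with Nkg7 called lower among 12, and dendritic cell markers to 1086 to 1205 CPM in KO against 1214 to 1273 CPM in WT, with Siglech called higher among 9. The 8 basophil, mast cell and eosinophil markers in the table had too few counts to test, but WT library 2 stood apart in them: they summed to 7.56 and 27.8 CPM in KO against 15.4 CPM in WT library 1 and 159.5 CPM in WT library 2. No marker on any of these lists that had a row was at 0 in all 4 libraries. The 10 genes are expressed in many cell types, so these shifts moved with every comparison given here, and their part in the results was not tested. In such bulk samples fewer cells of a type and less RNA per cell cannot be told apart.

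The comparison of CD300ld KO with WT describes how the levels of these genes differed between enriched samples whose cell type markers differed too. Junb and Fosb, which encode AP-1 subunits, rose in KO to about the same extent, by 0.96 and 1.05 on the log2 scale. Jun, Egr1, Zfp36, Dusp1 and Fos also had positive fold changes, between 0.26 and 0.62, which did not pass the test. Atf3 was the only member with a negative value, a log2 fold change of −1.55 that fell just short of the threshold (adjusted p = 0.0587). A gene was called where edgeR's quasi-likelihood test gave an adjusted p below 0.05 over all 7685 genes tested, and all 10 members had enough counts to be tested. Of the 10, 2 were called higher in KO and 0 lower, where 2.71% of all genes tested were called higher, 3.27% lower and 5.97% in either direction. At an unadjusted p below 0.05 there were 5 members, or 50%, and 18.9% of all genes tested. The median log2 fold change was 0.44 over the members and 0.00253 over all genes tested. Leaving out WT library 1 brought the members' median to 0.255, and leaving out WT library 2 brought it to 0.633.

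**Figure D1:**
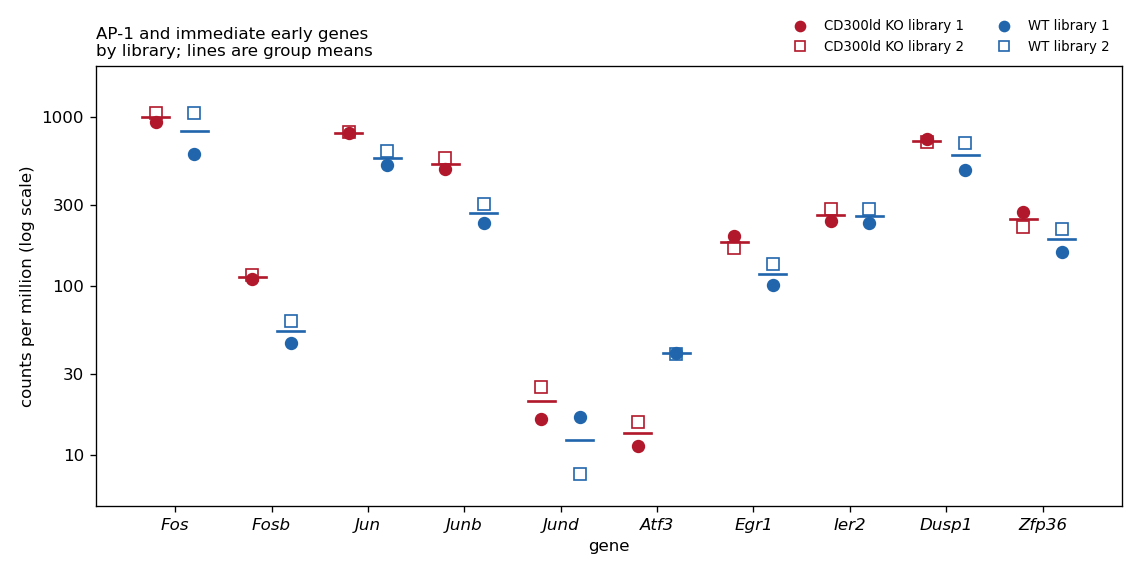
CPM (log scale) of the 10 genes, with CD300ld KO libraries in red left of WT libraries in blue, library 1 as filled circles and library 2 as open squares; lines are the means of 2 libraries. Fosb and Junb are higher in both KO libraries than in either WT library, Atf3 is lower, and WT library 1 is the lowest of the 4 for 8 of the 10 genes.

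Junb encodes a JUN family subunit that often restrains JUN and is induced by cytokines through STAT factors as well as by MAP kinases. It had 491 and 569 CPM in the KO libraries, against 237 and 306 CPM in the WT libraries. Both KO libraries lay above both WT libraries, and each KO library exceeded each WT library at least 1.606-fold. Junb was 1.94-fold higher in KO (log2 fold change 0.96 ± 0.17, SE, adjusted p = 0.00184 in edgeR). The call held whichever library was left out, with adjusted p up to 0.00529, and the log2 fold change was 0.945 without haemoglobin and mitochondrial genes. In GENCODE M21 the exons of Junb share 173 of 2301 bases with Prdx2, a peroxidase gene on the other strand that is abundant in erythroid cells, and the strand setting of the counting is not given. Prdx2 had 3625 and 3474 CPM in KO against 2584 and 2385 CPM in WT, and its fold change was 0.52 ± 0.10 on the log2 scale (adjusted p = 0.00576 in edgeR), so reads of one gene may have been counted for the other. The part of Prdx2 in the rise of Junb was not tested.

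Fosb encodes a FOS family subunit, a partner of JUN proteins. It had 111 and 116 CPM in KO against 46.1 and 62.0 CPM in WT, with 88 and 96 reads behind the KO values and 30 and 56 behind those of WT. The KO libraries were nearly equal and both lay above both WT libraries. Fosb was 2.07-fold higher in KO (log2 fold change 1.05 ± 0.26, adjusted p = 0.0206 in edgeR). Leaving out WT library 1 ended the call (0.85, adjusted p = 0.119), as did leaving out KO library 2 (1.02, adjusted p = 0.0540), and DESeq2 gave adjusted p = 0.116.

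The promoters of the 2 called genes are shown with that of Fos, the best studied immediate early gene, because all 3 hold the letters TGACG, the first part of the cyclic AMP response element. They are RefSeq sequences of GRCm38.p6, from 250 bases before to 50 bases after the annotated start, read along the gene: Junb at chr8:84978699-84978998 on the minus strand, Fosb at chr7:19309996-19310295 on the minus strand and Fos at chr12:85473640-85473939 on the plus strand. Capitals mark TGACG and, in Fosb, GCGGGGGCG, a match to the EGR motif.
Junb: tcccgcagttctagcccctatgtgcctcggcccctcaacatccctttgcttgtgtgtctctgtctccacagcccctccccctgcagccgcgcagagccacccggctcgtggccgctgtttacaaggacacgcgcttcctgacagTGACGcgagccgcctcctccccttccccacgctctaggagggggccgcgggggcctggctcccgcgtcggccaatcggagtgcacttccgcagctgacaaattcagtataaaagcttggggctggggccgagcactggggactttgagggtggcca
Fosb: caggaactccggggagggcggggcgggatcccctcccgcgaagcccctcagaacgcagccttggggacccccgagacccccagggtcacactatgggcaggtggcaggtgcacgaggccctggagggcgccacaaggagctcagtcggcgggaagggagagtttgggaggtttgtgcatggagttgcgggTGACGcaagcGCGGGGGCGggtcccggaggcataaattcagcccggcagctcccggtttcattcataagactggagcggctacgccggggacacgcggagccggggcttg
Fos: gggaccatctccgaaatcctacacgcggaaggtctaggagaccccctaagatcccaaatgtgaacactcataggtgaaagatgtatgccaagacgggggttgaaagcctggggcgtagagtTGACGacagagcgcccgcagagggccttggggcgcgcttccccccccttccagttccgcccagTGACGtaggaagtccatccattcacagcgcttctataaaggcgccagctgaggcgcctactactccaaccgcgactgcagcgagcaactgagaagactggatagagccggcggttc

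On both strands, TGACG was present in 5 of the 8 member promoters scanned, against 20.8% of all 32851 promoters in the RefSeq table. The promoters of Egr1 and Ier2 were not scanned, so these counts do not cover them. Its first base stood at position −106 in Junb, at −60 in Fosb and at −129 and −66 in Fos, counted from the annotated start at 0. Atf3 and Dusp1 held it too. Among the 8 scanned promoters, the full element TGACGTCA, which contains TGACG on each strand, was found in Dusp1 (1.79% of all promoters). GCGNGGGCG was in Fosb and Zfp36 (5.55%). Within these windows, the CArG box bound by SRF (1.63%) and the STAT motif TTCNNNGAA (8.3%) were in Zfp36. Sites more than 250 bases before the start, in Fos or any other member, lay outside the windows and were not looked at. Whether Egr1 holds a CArG box was not looked at. TGANTCA, bound by AP-1, was in 0 of the 8 windows and in 7.81% of all promoters. TGACG was thus in both called members and in 3 uncalled ones, and a match is a description of letters only. The shares were not matched for base composition. The scanned promoters held 58.7% to 68.3% G and C, apart from Jund with 46.7%, against a median of 52.7% over all promoters. GGGCGG, the GC box, was also in 6 of the 8, against 35.7% of all promoters.

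Fos encodes the FOS subunit itself and was the most abundant member per length. It had 929.5 and 1060 CPM in KO against 601 and 1052 CPM in WT. WT library 2 lay between the KO libraries, and WT library 1 stood well below the other 3. The log2 fold change was 0.26 ± 0.19 (adjusted p = 0.523 in edgeR). Without WT library 1 it turned to −0.10 (adjusted p = 0.831), and without WT library 2 it was 0.72 (adjusted p = 0.000128). The sign and the call for Fos thus turned on which WT library was left out.

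Jun, which encodes the JUN subunit that pairs with FOS, had 798 and 809 CPM in KO against 516 and 630.4 CPM in WT. The KO libraries were nearly equal and above both WT libraries. Its log2 fold change of 0.48 ± 0.14 lay beside the threshold (adjusted p = 0.0545 in edgeR). It passed in some alternatives, among them limma-voom (adjusted p = 0.0219), the filter of 50 CPM (adjusted p = 0.0207) and the fit without WT library 2 (0.63, adjusted p = 0.00372), and it was 0.33 without WT library 1 (adjusted p = 0.251). Jund, the JUN family member that most cells express without stimulus, had only 13 and 21 reads in KO and 11 and 7 in WT. Its libraries overlapped (16.4 and 25.4 CPM in KO against 16.9 and 7.76 CPM in WT), and its log2 fold change of 0.80 ± 0.59 was not distinguishable from 0 at this depth (adjusted p = 0.528). Of its 1668 exon bases, 877 are shared with Gm11175 on the other strand in GENCODE M21, so its counts are uncertain. Jun and Zfp36 share 232 and 125 exon bases with the unlisted antisense genes Junos and Gm44710.

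Atf3 encodes a stress-induced factor of the ATF family that can pair with JUN proteins and represses inflammatory genes. It had 9 and 13 reads in KO and 26 and 36 in WT, or 11.3 and 15.7 CPM in KO against 39.9 and 39.9 CPM in WT. Both KO libraries lay below both WT libraries, and the WT libraries were nearly equal. The log2 fold change of −1.55 ± 0.46 did not pass over all genes (adjusted p = 0.0587 in edgeR) and lay between −1.80 and −1.35 in the fits without 1 library, with adjusted p of 0.0707 to 0.181. Atf3 was the only member whose KO libraries both lay below WT, a pattern that 23.6% of all genes tested had. For 6 members both KO libraries lay above both WT libraries, which 24.5% of all genes tested did.

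**Figure D2:**
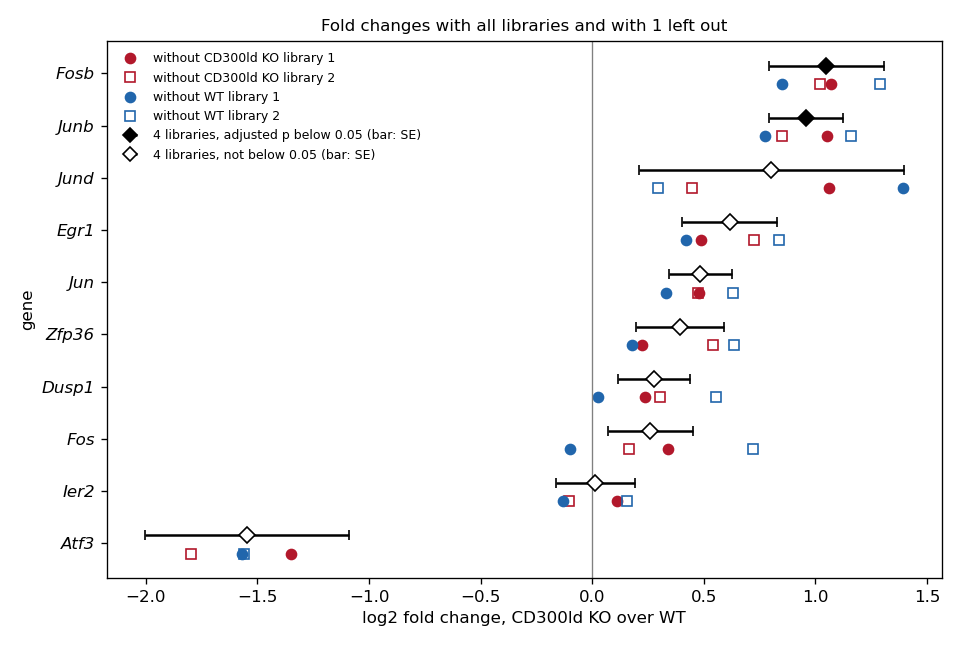
Log2 fold change of CD300ld KO over WT for each gene, with all 4 libraries (diamonds with SE; filled where the adjusted p was below 0.05) and with 1 library left out (coloured points below). Junb stays between 0.77 and 1.16 and Fosb between 0.85 and 1.29, while Fos ranges from −0.10 to 0.72 with the choice of WT library.

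Egr1 encodes a zinc finger factor induced through SRF. It had 197 and 168 CPM in KO against 101 and 134 CPM in WT. The groups did not overlap, but KO library 1 was higher than KO library 2 and the WT libraries differed by a like amount, and the log2 fold change of 0.62 ± 0.21 did not pass (adjusted p = 0.107 in edgeR). Ier2, a small nuclear protein gene of the same class, had 242 and 284 CPM in KO against 235 and 284 CPM in WT. It showed the smallest difference of the members, with a log2 fold change of 0.01 ± 0.18 (adjusted p = 0.982) whose sign changed with the library left out. Junb and Ier2 lie close together on chromosome 8, with 13 tested genes between them.

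Dusp1 and Zfp36 encode the brakes of the response. The phosphatase DUSP1 inactivates p38 and JNK, and tristetraprolin, the product of Zfp36, speeds the decay of messages with AU-rich elements. Dusp1 had 735 and 709 CPM in KO against 489 and 699 CPM in WT. As for Fos, WT library 2 was near the KO libraries and WT library 1 was below them, and the log2 fold change of 0.28 ± 0.16 (adjusted p = 0.394 in edgeR) shrank to 0.03 in the fit without WT library 1 and reached 0.56 (adjusted p = 0.0203) in that without WT library 2. Zfp36 had 276 and 223 CPM in KO against 160 and 217 CPM in WT. Its groups lay close without overlapping, and the log2 fold change of 0.39 ± 0.20 did not pass (adjusted p = 0.296). Neither result shows that the 2 genes were unchanged.

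The WT libraries differed from each other in nearly all of these genes. WT library 1 had the lowest level of the 4 libraries for 8 of 10 members, which held for 25.2% of all genes tested. WT library 2 stood above WT library 1 by a median of 0.38 on the log2 scale over the members, and by −0.01 over all genes tested. Fos was 1.75-fold, Dusp1 1.43-fold and Zfp36 1.36-fold higher in WT library 2 than in WT library 1. Taken without sign, the difference between the libraries of a genotype had a median of 0.219 in KO and 0.408 in WT over the members, and of 0.342 in KO and 0.349 in WT over all genes tested. The members' reads together made up 0.364% and 0.394% of all counts for KO, against 0.236% and 0.336% for WT. The WT libraries also differed in the basophil, mast cell and eosinophil markers, which summed to 159.5 CPM in WT library 2 and 15.4 CPM in WT library 1, with 75 and 0 reads of Prss34 and 32 and 0 of Mcpt8. The part of these cells in the members' levels was not tested.

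Ratios of 2 members within 1 library do not depend on scaling. Junb had 0.615 and 0.703 reads per read of Jun in KO against 0.458 and 0.485 in WT. Fosb had 0.119 and 0.109 reads per read of Fos in KO against 0.0767 and 0.0589 in WT. Both ratios were thus higher in each KO library than in each WT library, and their numerators are the 2 genes already called higher. Dusp1 had 0.791 and 0.669 reads per read of Fos in KO against 0.813 and 0.664 in WT, with overlapping groups. Atf3 had 0.0122 and 0.0148 reads per read of Fos in KO against 0.0665 and 0.0379 in WT, lower in both KO libraries. Ier2 to Fos was lower in both too (0.26 and 0.268 in KO, 0.391 and 0.269 in WT). Junb to Fos was higher in both (0.528 and 0.536 in KO, 0.394 and 0.291 in WT). The ratios of Jun, Egr1 and Zfp36 to Fos and of Jund to Jun overlapped between the groups. With 2 libraries a group an exact two-sided permutation test cannot go below p = 0.333, so these ratios are given without a test.

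**Figure D3:**
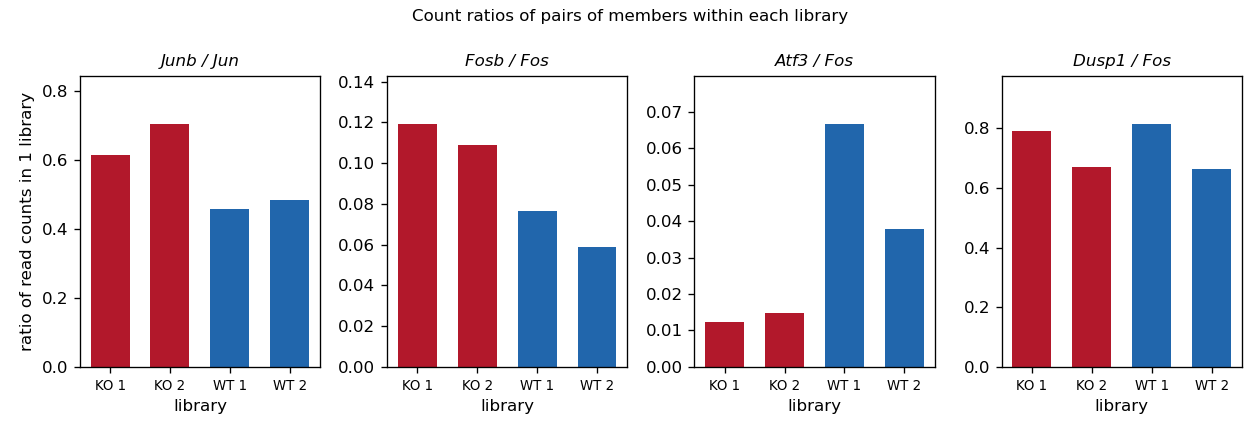
Ratio of the read counts of 2 genes within each library, CD300ld KO libraries in red and WT libraries in blue, with each axis starting at 0. Junb relative to Jun and Fosb relative to Fos are higher in both KO libraries, Atf3 relative to Fos is lower, and Dusp1 relative to Fos overlaps between 0.664 and 0.813.

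Levels of different genes were set side by side as CPM per kilobase of exon in GENCODE M21. The median count did not rise with exon length in this table (32.2 in the second of 4 bins of rising exon length and 29.0 in the last), so the order is approximate. Fos led with a mean of 387 CPM per kilobase over the 4 libraries, ahead of Jun with 216, Dusp1 with 199, Junb with 174 and Ier2 with 171. The ranges of these last 4 genes over the libraries overlapped. Zfp36 followed with 63.1, Egr1 with 33.4, Fosb with 13.4, Atf3 with 12.4 and Jund with 9.95 CPM per kilobase, and the ranges of Fosb, Atf3 and Jund overlapped too. In raw CPM the range of Fosb (46.1 to 116) lay above those of Atf3 (11.3 to 39.9) and Jund (7.76 to 25.4). Fos in raw CPM was higher than 98.7% of all genes tested.

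The pattern most like a member was sought among 3007 other genes of at least 50 CPM, as the smallest distance between centred log2 CPM profiles over the 4 libraries. For Fos these were Emilin2, Cdk2ap2 and Nmt1, at distances of 0.0499, 0.0983 and 0.131. For Jun they were Vars, Pax5 and 2510012J08Rik, at 0.0416, 0.0547 and 0.0568. For Dusp1 they were Traf7, Th1l and Ncstn, at 0.0377, 0.0420 and 0.0548. None of the 9 genes was called, and 4 libraries are few for such a likeness.

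Of the other AP-1 subunits, 6 were tested and 0 were called, with a median log2 fold change of 0.22. The small MAF factors Mafk and Mafg, the most abundant, had 0.32 ± 0.21 (adjusted p = 0.446 in edgeR) and 0.40 ± 0.24 (adjusted p = 0.403). Among 10 CREB and other ATF factors 3 were called higher and 0 lower, with a median of 0.34. Ddit3, encoding the stress factor CHOP, had 108 and 115 CPM in KO against 39.9 and 36.6 CPM in WT and rose by 1.55 ± 0.27 (adjusted p = 0.00190). Atf4, the factor that induces CHOP when the integrated stress response is active, had 519 and 529 CPM in KO against 304 and 370 CPM in WT (0.63 ± 0.15, adjusted p = 0.0190), a call lost in 3 of 4 fits with a library left out (adjusted p of 0.0701 to 0.102). Atf5 had 30 and 20 reads in KO and 3 and 1 in WT (3.49 ± 0.73, adjusted p = 0.00721 in edgeR). Its call was lost in limma-voom (adjusted p = 0.158) and without KO library 1 (log2 fold change 3.1). These 3 genes lay higher in KO in the same libraries in which Atf3 lay lower.

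Of 13 other immediate early transcription factor genes, Per1 was called higher and 0 were lower, with a median of 0.32. Per1, a clock gene that is also induced by cyclic AMP, had 288 and 252 CPM in KO against 138 and 131 CPM in WT and rose by 1.01 ± 0.18 (adjusted p = 0.00255 in edgeR). Of 21 immediate early genes with other products, 2 were called higher and 0 lower, with a median of 0.19. The number called higher changed when WT library 2 was left out. Ppp1r15a, encoding GADD34, a phosphatase subunit that reverses the integrated stress response, had 1768 and 1573 CPM in KO against 825 and 928 CPM in WT (0.93 ± 0.13, adjusted p = 0.000210). Odc1, the first enzyme of polyamine synthesis, had 368 and 312 CPM in KO against 146 and 159 CPM in WT (1.15 ± 0.18, adjusted p = 0.000708). The summed level of that list was 3153 to 3372 CPM in KO against 1960 to 2266 CPM in WT.

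**Figure D4:**
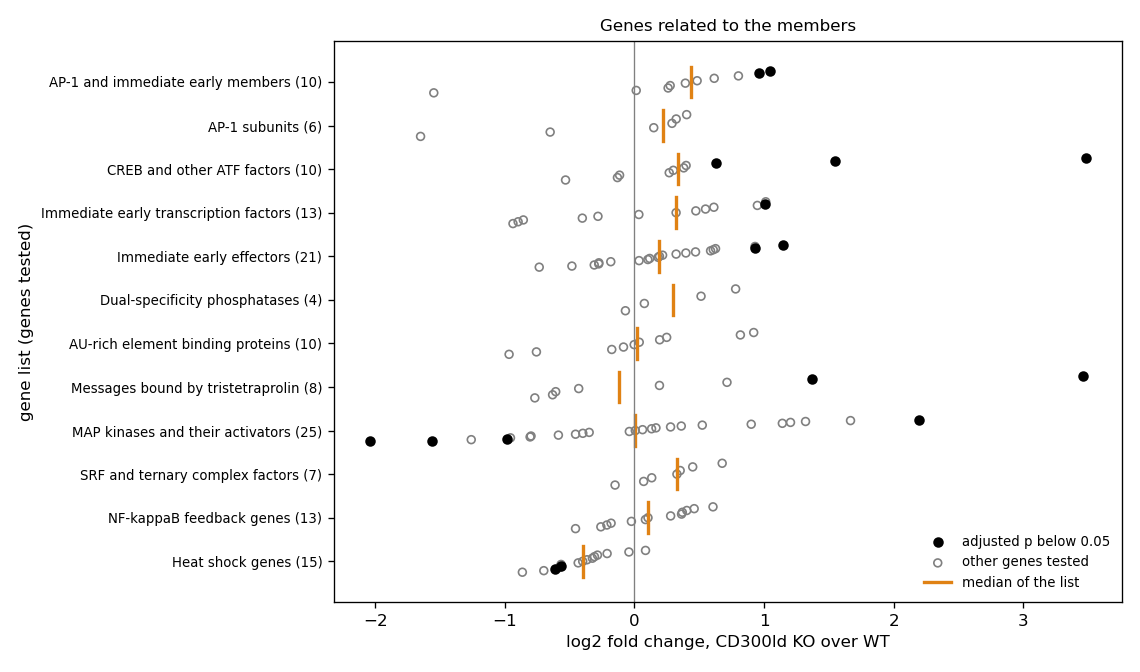
Log2 fold change of CD300ld KO over WT for each tested gene of the members and of 11 related lists, with called genes as filled points and the median of each list as an orange line; lists named like the members hold genes outside them. Called genes of the CREB and ATF list and of both other immediate early lists lie right of 0, and both called heat shock genes lie left of 0.

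Among MAP kinases, their activators and the kinases they activate, 25 genes were tested. Of these 1 was called higher and 3 lower, with a median of 0.01. Map3k1, a kinase above JNK, had 68.0 and 76.1 CPM in KO against 20.0 and 12.2 CPM in WT and rose by 2.19 ± 0.38 (adjusted p = 0.00184 in edgeR). Rps6ka1, the ERK-activated kinase RSK1, had 184 and 156 CPM in KO against 338 and 335 CPM in WT and fell by 0.99 ± 0.17 (adjusted p = 0.00193). Mapkapk3, a target of p38, fell by 1.56 ± 0.31 (adjusted p = 0.00560), and Mapk13, the p38 delta kinase, fell by 2.04 ± 0.55 (adjusted p = 0.0362). The Mapk13 call was lost without KO library 2 (log2 fold change −1.51) or WT library 2 (−1.81). It was also lost in DESeq2 (adjusted p = 0.133), limma-voom (0.0932) and edgeR with the filter of 1 CPM (0.0612). Of 7 genes for SRF, its partners and related co-activators 0 were called (median 0.33), with Ep300 at 0.33 ± 0.25 (adjusted p = 0.533) and Crtc2 at −0.15 ± 0.28 (adjusted p = 0.848).

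Of the genes that act like Dusp1 and Zfp36, 0 of 4 other dual-specificity phosphatases and 0 of 10 other binders of AU-rich elements or their partners were called, with medians of 0.30 and 0.02. Dusp11 had 0.08 ± 0.23 (adjusted p = 0.913 in edgeR), Dusp6 −0.07 ± 0.39 (adjusted p = 0.955), Elavl1 −0.17 ± 0.21 (adjusted p = 0.736) and Pcbp1 −0.08 ± 0.26 (adjusted p = 0.913). Among 8 tested messages known as ligands of tristetraprolin, 2 were called higher and 0 lower, with a median of −0.12. Il1b, encoding interleukin-1β, had 135 and 96.6 CPM in KO against 38.4 and 49.9 CPM in WT and rose by 1.37 ± 0.28 (adjusted p = 0.00652). Pim1, a kinase gene induced by cytokines, had 316 and 338 CPM in KO against 29.2 and 29.9 CPM in WT (3.46 ± 0.22, adjusted p = 3.39e-08). Pim1 and Dusp1 are on chromosome 17 with the class II pseudogene H2-Ea-ps, with 274 and 313 counts for KO against 0 and 1 for WT. By distance to H2-Ea-ps, Pim1 was number 103 and Dusp1 number 139 of 355 tested genes on the chromosome. Such a rank gives no genetic distance, and linkage was not tested. A chromosome segment carried over from another strain cannot be told apart from the knockout itself there.

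Of 13 NF-κB feedback genes 0 were called, with a median of 0.10. Nfkbia, the inhibitor of NF-κB, had 0.10 ± 0.20 (adjusted p = 0.851 in edgeR) and Tnfaip2 0.61 ± 0.27 (adjusted p = 0.226). Of 15 heat shock genes, which are induced by protein stress, 0 were called higher and 2 lower, with a median of −0.40 and a summed level of 4925 to 5083 CPM in KO against 6566 to 6615 CPM in WT. Hspa5, the chaperone BiP, fell by 0.57 ± 0.13 (adjusted p = 0.0148), and Hspd1, the mitochondrial chaperonin, fell by 0.61 ± 0.17 (adjusted p = 0.0473). The number called lower changed with the library left out. It was 7 with the filter of 50 CPM, where 304 of all 3178 genes tested were called lower. Both named calls were lost without KO library 1 (adjusted p = 0.107 for Hspa5 and 0.222 for Hspd1) and without KO library 2 (0.0925 and 0.0891), and that of Hspd1 also without WT library 1 (0.177) and in DESeq2 (0.147).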

How the data were processed

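A single table of raw read counts by gene name, in whole numbers, was deposited. Bowtie 0.12.2 and 2 builds, mm8 and mm9, are listed without a role, per the submitters' processing notes; the counting program, annotation and strand setting were not given in the sources used here. The table held 21831 rows and 18751 distinct names; rows of a name were identical and each name was kept once. Column names gave the genotype of a library but no sample.

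The main model was edgeR 4.0.16 in R 4.3.3 (TMM scaling, filterByExpr at 10 counts and a total of 15, quasi-likelihood test of CD300ld KO against WT, Benjamini-Hochberg adjustment over all genes tested, threshold 0.05). The fit was tested on simulated data. SEs were taken as |log2 fold change| over the root of F. CPM used TMM-scaled library sizes; 1 read was worth 1.11 to 1.54 CPM. No member lay below the filter, so the exact test planned for such members was not needed. DESeq2 1.42.0 and limma-voom (limma 3.58.1) were alternatives.

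All 10 members were named, with at most 5 called genes per list, smallest p first, and where a list had no call its 2 most abundant genes. The members and the 18 lists were chosen with earlier results of these data known. GENCODE M21 was used for exon lengths, overlaps and gene order, and RefSeq GRCm38.p6 for promoters; as the files' build is not settled, no coordinates of the counts are given.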

Additional observations from a re-analysis of the deposited data

How the results depend on the processing

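Of the 10 members, 2 were called, both higher in KO. DESeq2 called 1 (Junb), and requiring a log2 change of at least 1 in size also left 1 (Fosb). An adjusted p of 0.1 called 4, of which 1, Atf3, was lower. When 1 library was left out, between 1 and 5 were called, all higher in KO: 5 without WT library 2 (Dusp1, Fos, Fosb, Jun and Junb), 1 (Junb) without WT library 1 and without KO library 2. Left-out fits ran the filter anew, and a genotype's lone library was taken to vary as the others did. Over all 7685 genes tested, 208 were called higher. DESeq2 called 124 of them higher, an adjusted p of 0.1 called 331 and the fold limit 87. Other scalings, filters and limma-voom called 2 or 3 members. Signs changed for Fos (−0.10 to 0.72 with 1 library left out) and Ier2 (−0.13 to 0.15, and −0.016 with the filter of 50 CPM); for no other member did the sign change in any alternative. Scaling moved the median of all genes by less than 0.1. Leaving out names on several rows was added after seeing the data and called 2. The column names number the libraries 1 and 2 in both genotypes, but no label ties a number to a shared litter, batch or day, and same-numbered libraries did not deviate together (r = −0.03 across the genes tested). A fit with that number as a replicate block, also added after seeing the data, called 3 members (Fosb, Jun and Junb) and, of all genes, 264 higher and 294 lower against 251 lower without the block. Depth limits Jund and Atf3, which had 7 to 36 reads a library.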

Other observations

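Among the 10 tested genes on either side of Junb along chromosome 8, 3 were called higher in KO: Klf1 and Prdx2, both known from erythroid cells, and the kinase gene Mylk3. Prdx2 shares exon bases with Junb itself. Calr, which encodes an endoplasmic reticulum chaperone, was the 1 called lower. Around Fosb on chromosome 7, 0 were higher and Pglyrp1, a granule protein gene of neutrophils, was the 1 called lower. Around Fos, Jun, Jund, Egr1 and Zfp36, 0 of 20 such neighbours were called. Around Ier2, Klf1 and Calr were called again, around Atf3 Hsd11b1 was called lower and around Dusp1 Pigq was called higher. Over all genes tested, 2.71% were called higher and 3.27% lower. The neighbours were looked up after the members' values were seen.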
